A study of Homo sapiens with 54 samples.

Results

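Of the 54 libraries of the study, 6 are described here, namely 3 libraries of hMSN-like cells harvested 24 h after an acute exposure to 1 mM dopamine (Acute 24 h) and the 3 PBS libraries of the same experiment. They were taken by their labels, and replicate 1 of Acute 24 h was already known from earlier results to have high immediate early genes and a low mitochondrial share. hMSN-like cells are neurons of a striatal type that were differentiated with activin A from H9, an established line of human embryonic stem cells. In the study's methods, part of the medium was exchanged for dopamine in ascorbic acid for 1 h, while the label of the controls names PBS only, so an effect of dopamine and one of its vehicle cannot be told apart here. The study gives an earlier day in culture for acute than for chronic (repeated) dosing. The day on which the PBS cultures were harvested is not given in the sources used here, so their age may differ from that of the treated cultures.

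All 6 libraries are from 1 cell line, and nothing in the labels says whether the replicates came from separate differentiations. The p-values therefore measure the spread between cultures only, estimated over the 15 libraries of the 1 mM experiment unless said otherwise. RNA was extracted from whole cultures, and fewer cells of a type cannot be told apart from less RNA per cell. The PBS cultures held high levels of the general neuronal genes MAP2 (TPM 489.6 ± 36.1, SD, n = 3) and STMN2 (1546 ± 101, SD, n = 3). Among the markers of medium spiny neurons, the dopamine receptor genes were low: DRD1, the D1 dopamine receptor gene, had TPM values of 2.35, 1.87 and 0.619 in the 3 PBS libraries, and DRD2, the D2 receptor gene, had 3.71, 2.60 and 2.60. PPP1R1B, which encodes DARPP-32, reached 24.5, 21.7 and 20.3, and BCL11B, which encodes the striatal transcription factor CTIP2, 46.9, 41.5 and 52.4. The 28 markers listed for this cell type summed to 348 to 381. By immunostaining, the study found DARPP-32 protein in part of the H9-derived neurons. NEUROD6, a marker of glutamatergic projection neurons of the cortex, stood far above these 4 genes at 1033, 1058 and 1086. The cultures therefore held transcripts of more than a single neuronal type, and results below are of the mixture.

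The 6 libraries held 16786159 to 25570334 reads on genes, of which 14688981 to 21514125 were on exons. For a gene with 2000 exon bases, 3 exon reads correspond to a TPM (a level of transcripts, from exon reads scaled by exon length and library size) of 0.298 to 0.503, and such floors cover counting error only. Replicate 1 of Acute 24 h stood apart. Mitochondrially encoded genes took 0.826% of its exon reads (Wilson 95% interval 0.821 to 0.831) against 2.49% to 2.95% in the other 5 libraries. Its TPM was the highest or lowest of the 6 libraries in 13527 of 17804 genes tested, compared with 2946 to 5439 genes for each other library. TUBB3, a neuronal tubulin gene, had a TPM of 140.5 in it and 739.5 to 997 elsewhere. Gene groups are therefore counted with and without this library. For single genes, the value without it is given for many, but not all, of those in which it moved by over 1.5 times or the call was lost. Changes of sign are listed in the closing section. Introns took 12.5% to 15.9% of gene reads at Acute 24 h and 19.5% to 21.8% after PBS, so exon reads were the main measure and total gene reads (exon and intron reads together) the alternative. Whether the intron share has a part in the differences was not tested.

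As background, dopamine acts on G protein-coupled receptors of medium spiny neurons. D1-like receptors raise and D2-like receptors lower cyclic AMP, and a short rise in cyclic AMP or calcium is followed by brief transcription of immediate early genes such as FOS and EGR1. At high concentrations, dopamine also oxidises to quinones and peroxide, to which cells respond through the NRF2 pathway. Hypoxia-inducible factors (HIFs) are transcription factors that are degraded when oxygen allows their prolyl hydroxylases to work, and their targets include the genes of glucose uptake, glycolysis and angiogenesis.

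A gene was called a DEG (differentially expressed gene) when edgeR's quasi-likelihood test, adjusted by Benjamini-Hochberg over all genes tested, gave an adjusted p-value under 0.05, the groups differed by at least 1 on the log2 scale and at least 1 group reached a mean TPM of 1. By exon reads, 261 DEGs were higher (1.47% of 17804 genes) and 398 lower (2.24%) at Acute 24 h than after PBS. Without replicate 1, 144 were higher (0.792% of 18178 genes) and 420 lower (2.31%). The DEGs of both fits shared 361 genes with the same direction, 68 higher and 293 lower. These were 26.1% of the higher and 73.6% of the lower DEGs of all 3 replicates. Replicate 1 was the highest of the 6 libraries for 231 of the 261 higher DEGs and the lowest for 220 of the 398 lower DEGs. Of the 361 genes, 270 were protein coding and 79 lncRNA genes, and 238 were also DEGs by total gene reads (42 higher and 196 lower, beside 2.07% and 2.27% of all 26006 genes). By adjusted p-value alone, 1492 genes were higher (8.38%) and 1263 lower (7.09%), and 2026 and 2022 (11.1% each) without replicate 1. Total gene reads gave 4759 higher (18.3% of 26006 genes) and 6629 lower (25.5%), a split that leans to the lower side. Gene groups below are counted by adjusted p-value alone. Each count is to be read beside the shares of all genes by exon reads, 8.38% higher and 7.09% lower (11.1% each without replicate 1). All 3 Acute 24 h libraries lay above all 3 PBS libraries in 25% of genes tested and below them in 12.2%. The 12 largest rises and 12 largest falls were picked among such genes, so their lack of overlap is no further result.

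**Figure D1:**
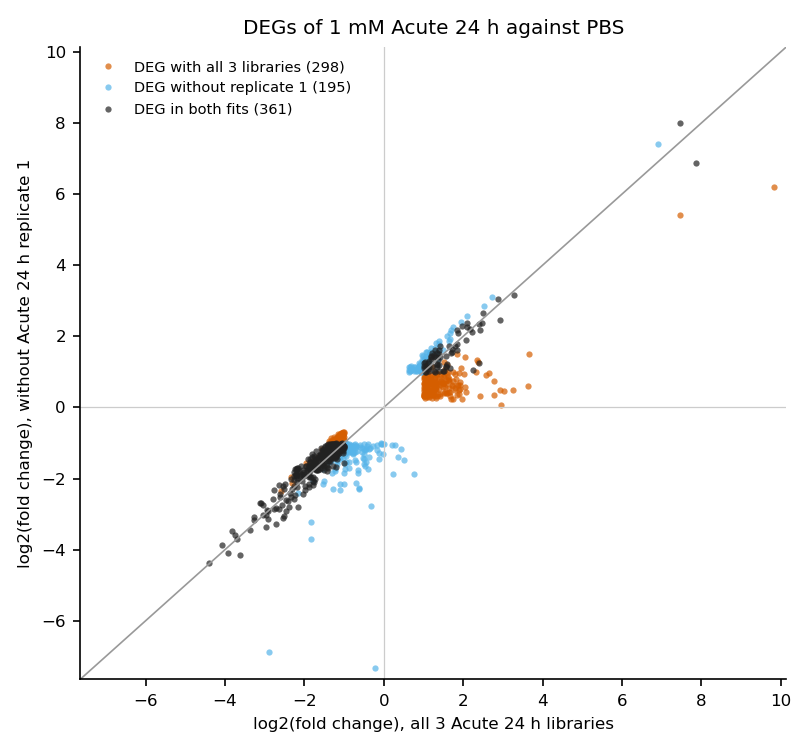
Each point is 1 of 854 DEGs of either fit, with its log2(fold change) at Acute 24 h against PBS by exon reads with all 3 replicates on the x axis and without replicate 1 on the y axis. The 361 DEGs of both fits follow the diagonal, the 298 genes that were DEGs only with all 3 replicates lie closer to 0 on the y axis, on the right side mostly well below the diagonal, and many of the 195 that were DEGs only without replicate 1 lie on the lower side between the diagonal and 0 on the x axis.

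The calls also depended on the control libraries and on the fit. All 5 groups of the 1 mM experiment shared 1 estimate of the spread, which pools acute and chronic cultures of different days in culture. In a fit of the 6 libraries alone, edgeR called 0 genes, with 3160 of 16818 genes at an unadjusted p under 0.05, while DESeq2's Wald test on these libraries, added after the data were seen, gave 121 higher and 299 lower DEGs. Without PBS replicate 1, 2 or 3, edgeR gave 61, 39 and 81 higher DEGs and 208, 167 and 316 lower DEGs. Without Acute 24 h replicate 2 or 3, the counts were 631 and 708 higher and 433 and 630 lower. By adjusted p-value alone, the fits without PBS replicate 1, 2 or 3 gave 250, 130 and 463 higher genes and 486, 361 and 719 lower.

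Most genes of glycolysis and most targets of HIF fell at Acute 24 h, with and without replicate 1. Of 24 glycolysis genes tested, 21 fell and 0 rose in both fits, beside 7.09% of all genes with all 3 replicates and 11.1% without the first, and the median log2(fold change) was -1.24 and -1.17 against 0.022 and -0.0029 over all genes. Of 32 further HIF targets, 27 fell and 0 rose with all 3 replicates, and 31 fell without replicate 1 (medians -1.13 and -1.20). In 22 of the 24 and 21 of the 32 genes, all 3 Acute 24 h libraries lay below all 3 PBS libraries, as they did for 12.2% of all genes tested. Leaving out each library in turn gave 18 to 23 lower glycolysis genes and 18 to 31 lower HIF targets, with 0 higher in both lists in each of the 6 fits.

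The summed TPM of the glycolysis genes was 11078, 10567 and 8890 in the PBS libraries and 5129, 6296 and 6513 at Acute 24 h. That of the HIF targets was 4424, 3475 and 2517 after PBS and 1825, 1225 and 1485 at Acute 24 h. The groups did not overlap in either sum. PBS replicate 3 was the lowest control in both, and replicate 1 of Acute 24 h was the lowest of its group for glycolysis and the highest for the HIF targets. The other dopamine groups of the experiment, harvested 1 h after an acute dose or 1 or 24 h after repeated (chronic) doses, also lay below these controls. For glycolysis, the sums were 6719.5 to 8106 at Acute 1 h, 7175 to 8298 at Chronic 1 h and 6248 to 7253 at Chronic 24 h. For the HIF targets, they were 1228.5 to 1522, 1921 to 2155 and 1375 to 1820.

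Promoter sequences are shown for the 3 members with the largest changes whose RefSeq windows hold the core of the HIF response element, ACGTG, searched on both strands (CACGT is the same core on the other strand, and CACGTG holds both, overlapping). Windows run from 250 bases before to 50 bases after the annotated start, on the GRCh38.p14 assembly, each written 5′ to 3′ on the strand of its gene, with every match in capitals. CA9 is at chr9:35673678-35673977 (plus strand, 1 match), ANKRD37 at chr4:185396591-185396890 (plus strand, 3 matches) and ALDOC at chr17:28576846-28577145 (minus strand, 3 matches).
CA9: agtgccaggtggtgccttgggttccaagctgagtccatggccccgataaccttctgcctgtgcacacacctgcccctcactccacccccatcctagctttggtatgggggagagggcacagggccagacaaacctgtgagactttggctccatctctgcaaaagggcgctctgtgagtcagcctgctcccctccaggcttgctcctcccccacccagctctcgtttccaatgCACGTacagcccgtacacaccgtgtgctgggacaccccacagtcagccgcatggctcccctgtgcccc
ANKRD37: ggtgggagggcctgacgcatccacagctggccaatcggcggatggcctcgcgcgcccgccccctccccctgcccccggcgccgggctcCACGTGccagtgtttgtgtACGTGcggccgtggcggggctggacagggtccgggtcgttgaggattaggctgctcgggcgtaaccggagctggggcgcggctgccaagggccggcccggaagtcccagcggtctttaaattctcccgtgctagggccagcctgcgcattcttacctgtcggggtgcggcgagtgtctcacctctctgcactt
ALDOC: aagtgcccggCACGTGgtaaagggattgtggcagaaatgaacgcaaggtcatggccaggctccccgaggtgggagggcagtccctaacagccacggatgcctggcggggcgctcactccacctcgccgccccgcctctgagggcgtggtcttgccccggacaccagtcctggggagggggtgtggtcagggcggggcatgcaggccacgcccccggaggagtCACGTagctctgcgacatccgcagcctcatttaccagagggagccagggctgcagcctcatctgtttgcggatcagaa

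Of the 57 genes of both lists in the tables, 48 had such a window, and 24 of these (50%) held the core. It was present in 21.4% of all 35116 windows and in 25.5% of the 12448 windows of genes tested. A match of 5 letters is a description of the sequence and not a site of binding.

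Glucose uptake came first among the members by role. SLC2A1 encodes the glucose transporter GLUT1 (ENSG00000117394, chromosome 1, 42925375 to 42958868). Its TPM was 284, 201 and 97.3 after PBS and 56.7, 32.2 and 38.0 at Acute 24 h, and the highest treated library stayed below the lowest control. The log2(fold change) was -2.34 (SE 0.339, edgeR adjusted p = 0.00188) and -2.52 (SE 0.359, edgeR adjusted p = 0.000426) without replicate 1. HK2, a hexokinase that traps glucose in the cell, had TPM values of 221, 131 and 88.5 after PBS and 23.6, 33.8 and 40.1 at Acute 24 h, again without overlap, with a log2(fold change) of -2.27 (SE 0.337, edgeR adjusted p = 0.0021). HK1, the hexokinase of most brain cells, fell by less, from 183 ± 13.1 to 121 ± 7.55 (SD, n = 3), with a log2(fold change) of -0.72 (SE 0.0882, edgeR adjusted p = 0.000958).

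Along the glycolytic chain, ALDOC, the aldolase of brain, changed most of the enzymes listed. Its TPM was 115, 139 and 95.7 after PBS and 16.3, 10.8 and 22.0 at Acute 24 h (ENSG00000109107, chromosome 17, 28573115 to 28576948). All 3 treated libraries were far below the lowest control, with a log2(fold change) of -2.94 (SE 0.471, edgeR adjusted p = 0.00337) and -2.87 (SE 0.487, edgeR adjusted p = 0.00134) without replicate 1. PFKP, a phosphofructokinase, TPI1, triosephosphate isomerase, and PGK1, phosphoglycerate kinase, fell, with log2(fold change) values of -1.22, -1.27 and -1.60. PDK1, a kinase that inhibits pyruvate dehydrogenase, had TPM values of 42.9, 34.3 and 25.2 and 8.70, 4.88 and 6.67, which did not overlap, and a log2(fold change) of -2.47 (SE 0.316, edgeR adjusted p = 0.00113). SLC16A3, the lactate exporter MCT4, dropped from 41.9, 41.9 and 25.1 to 5.97, 1.33 and 2.89, or to 8.17% of PBS in the fit. Its log2(fold change) was -3.61 (SE 0.582, edgeR adjusted p = 0.00338), and -4.14 (SE 0.570, edgeR adjusted p = 0.000371) without replicate 1, its highest treated library. The 3 glycolysis genes that did not pass in either fit were PKM, LDHB and SLC16A1, with log2(fold change) values of -0.25, -0.21 and -0.44, and by total gene reads the first pair stood at 0.029 and 0.073. With 1 library left out, PKM ranged from -0.43 to -0.066 and LDHB from -0.33 to -0.084. In both, edgeR's adjusted p-value was highest without replicate 1, at 0.678 and 0.387.

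Among the HIF targets outside glycolysis, ADM, which encodes the vasodilator peptide adrenomedullin, fell most with all 3 replicates among the genes named here (ENSG00000148926, chromosome 11, 10305073 to 10307397). Its TPM was 70.8, 38.6 and 16.0 after PBS and 2.31, 1.54 and 2.56 at Acute 24 h. The controls spread widely among themselves, and the lowest was well above every treated library. The log2(fold change) was -4.39 (SE 0.523, edgeR adjusted p = 0.000958) and -4.38 (SE 0.597, edgeR adjusted p = 0.000358) without replicate 1. CA9, a carbonic anhydrase of the cell surface, went from 29.98, 53.8 and 20.6 to 2.29, 1.58 and 4.32, with a log2(fold change) of -3.74 (SE 0.585, edgeR adjusted p = 0.00292). ANKRD37, an ankyrin repeat gene, went from 52.3, 29.5 and 11.7 to 2.83, 1.88 and 3.09, with a log2(fold change) of -3.69 (SE 0.471, edgeR adjusted p = 0.00113). The groups were apart in each gene.

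BNIP3, a gene of mitochondrial autophagy, had TPM values of 289, 245 and 187 after PBS and 59.5, 37.8 and 56.7 at Acute 24 h (log2(fold change) -2.35 (SE 0.282, edgeR adjusted p = 0.000958)). VEGFA, the growth factor of blood vessels, had 198, 178 and 114 and 56.5, 15.8 and 32.5 (log2(fold change) -2.39 (SE 0.384, edgeR adjusted p = 0.00338)). In VEGFA the second treated library was the lowest and the first the highest, while the controls were all above them. STC2, a secreted glycoprotein, fell from 69.2 ± 22.4 to 12.9 ± 5.08 (SD, n = 3), PLOD2, a collagen lysyl hydroxylase, from 38.8 ± 7.25 to 14.8 ± 1.13, and NDRG1, a gene induced by hypoxia, from 21.8 ± 3.74 to 9.93 ± 4.67. The log2(fold change) was -2.56 and -1.49 for the first 2 of these, and for NDRG1 -1.29, or -1.64 without replicate 1. Of the 32 targets, CA12, MXI1, ERO1A, RORA and JMJD6 did not pass with all 3 replicates, and of these JMJD6 did not pass without replicate 1 either.

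The genes of the HIF pathway itself moved less. Of 8 tested, 0 rose and 1 fell with all 3 replicates, and 1 rose and 1 fell without the first. HIF1A, the oxygen-regulated subunit, had TPM values of 145, 139.8 and 154 after PBS and 233, 172 and 162 at Acute 24 h, with a log2(fold change) of 0.24 (SE 0.0931, edgeR adjusted p = 0.0888). HIF3A, a further member of the family, was the one that fell, from 31.2, 35.3 and 25.9 to 20.7, 16.0 and 21.7 (-0.78 (SE 0.241, edgeR adjusted p = 0.0449)).

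**Figure D2:**
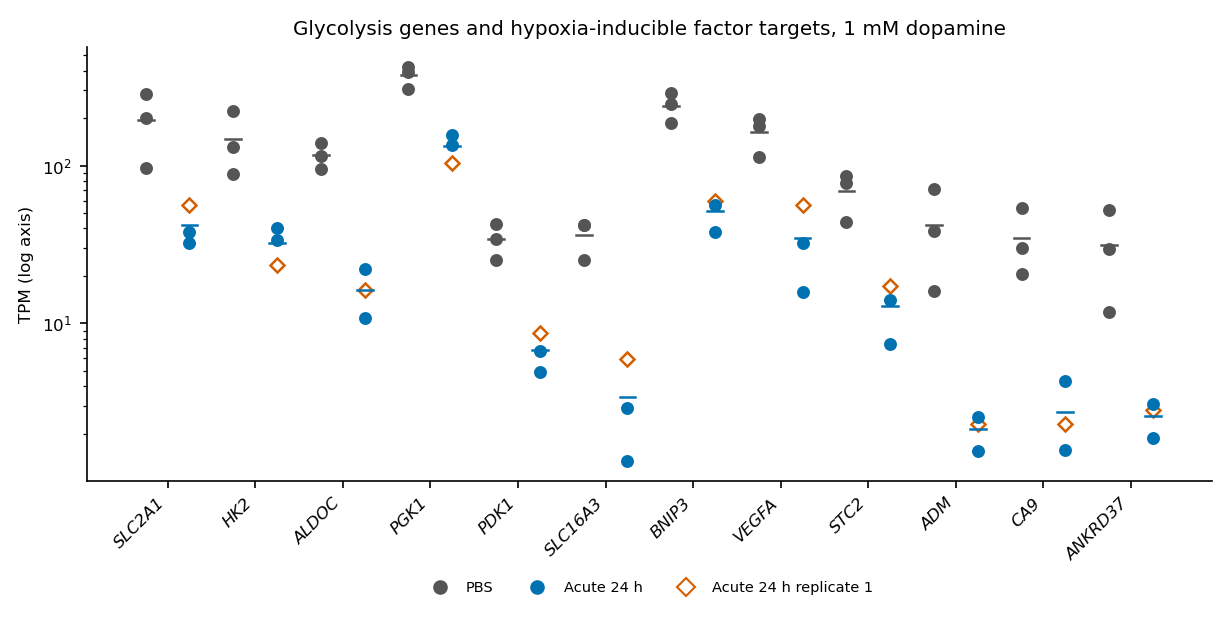
TPM on a log axis for 12 HIF targets and glycolysis genes in the PBS and Acute 24 h libraries, where each point is 1 library, the short bar the mean of 3 libraries and the open diamond Acute 24 h replicate 1. In each of the 12 genes all 3 Acute 24 h points lie below all 3 PBS points, and ADM, CA9 and ANKRD37 end between 1.54 and 4.32.

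Other genes with large falls were secreted factors and receptors. APLN, which encodes the peptide apelin, had TPM values of 18.9, 10.6 and 5.72 after PBS and 0.520, 0.328 and 1.29 at Acute 24 h, without overlap (log2(fold change) -4.07 (SE 0.513, edgeR adjusted p = 0.00108)). KISS1R, the kisspeptin receptor gene, went from 13.2, 8.58 and 2.54 to 0.201, 0.506 and 0.951 (-3.82 (SE 0.773, edgeR adjusted p = 0.00998)), and its controls spread from 2.54 to 13.2. PPDPFL, SLC28A3, SLC26A4-AS1, SLC35G3 and MMP3 were also among the 12 largest falls, and in the first 4 of these the treated libraries held few reads. SLC26A4-AS1 is antisense to a coding gene, and as the strand of counting is not given, its reads are uncertain. GREM1, a secreted BMP antagonist (ENSG00000166923, chromosome 15, 32718004 to 32745106), fell from 8.53, 10.1 and 7.81 to 1.07, 2.73 and 2.19, with a log2(fold change) of -2.20 (SE 0.271, edgeR adjusted p = 0.000958) and -1.89 (SE 0.163, edgeR adjusted p = 3.24e-05) without replicate 1. Among 11 linker and replication-independent histone genes tested, 2 fell with and without replicate 1, 1 of them H1-10, a linker histone, with a log2(fold change) of -0.80.

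Matrix proteases were uneven. MMP3, stromelysin 1, had TPM values of 18.0, 42.7 and 172 after PBS and 5.24, 17.4 and 6.86 at Acute 24 h. The third control was far above the others, and the log2(fold change) of -3.05 (SE 0.786, edgeR adjusted p = 0.0243) was lost without PBS replicate 2 or 3. MMP1, a collagenase gene that the study names, had 3.21, 5.05 and 24.5 and 1.02, 4.72 and 1.81, which overlapped, and did not pass (-2.16 (SE 0.719, edgeR adjusted p = 0.0559)). ADAMTS1, a protease of proteoglycans, rose from 35.8, 39.7 and 28.0 to 119, 64.4 and 54.5 (1.05 (SE 0.208, edgeR adjusted p = 0.00901); 0.73 without replicate 1). Of 21 proteases and inhibitors tested, 2 rose and 6 fell, and 4 rose and 6 fell without replicate 1. For this list and the next ones, the shares over all genes were 8.38% higher and 7.09% lower (11.1% each without replicate 1). MMP10, MMP14 and MMP17 fell, with log2(fold change) values of -1.77, -0.63 and -0.45. Of 29 matrix glycoproteins and proteoglycans, 1 rose and 8 fell (5 and 6 without replicate 1). DCN, the small proteoglycan decorin, fell from 11.6 ± 2.51 to 3.79 ± 1.10 (SD, n = 3; log2(fold change) -1.70), and BCAN, the brain proteoglycan brevican, from 26.0 ± 3.05 to 11.5 ± 3.93 (-1.26), and FBLN2, a fibulin, fell as well (-0.83), while FBN2, a fibrillin, rose from 21.1 ± 0.738 to 41.0 ± 6.21 (0.84). Of 21 collagens, 0 rose and 3 fell, namely COL9A1, COL9A3 and COL4A2, with 3 higher and 4 lower without replicate 1.

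Genes of sterol and fatty acid synthesis were lower in part. Of 32 tested, 11 fell and 0 rose, and 14 fell without replicate 1, with medians of -0.46 and -0.29. SCD, the desaturase of fatty acids, had TPM values of 965, 1048 and 934 after PBS and 409.7, 575 and 631 at Acute 24 h (-0.97 (SE 0.206, edgeR adjusted p = 0.0123)), and HMGCS1, which makes the precursor of mevalonate, 525, 578 and 579 and 272, 329.7 and 339.8 (-0.94 (SE 0.208, edgeR adjusted p = 0.0141)). In both genes the treated libraries were all below the controls. INSIG1 and FDFT1 fell, with log2(fold change) values of -0.89 and -0.97. Leaving out PBS replicate 2 left 0 of the 32 genes called.

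Markers of choroid plexus differed between the controls as well as between the groups. TTR, the thyroid hormone carrier that this tissue secretes, had TPM values of 1974, 2673 and 503 in the PBS libraries and 728, 201 and 463 at Acute 24 h, and AQP1, its water channel, 98.7, 62.7 and 10.5 and 11.6, 4.86 and 11.4. PBS replicate 3 lay within the treated range in AQP1 and below treated replicate 1 in TTR. TTR, AQP1 and FOLR1 fell (3 of 5 markers tested, with and without replicate 1), with log2(fold change) values of -2.04, -2.75 and -0.98 and adjusted p-values of 0.0362, 0.0268 and 0.0255 by edgeR. All 3 calls were lost without PBS replicate 1 or 2, and those of TTR and AQP1 also without Acute 24 h replicate 2. The summed TPM of the 5 markers was 2171, 2846 and 563 after PBS and 789, 267 and 541 at Acute 24 h. PBS replicate 3 was also the lowest control in the summed HIF targets, and whether the share of choroid plexus cells has a part in those falls was not tested.

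Actin and smooth muscle genes, the targets of the serum response factor SRF, rose in part. Of 16 tested, 8 rose and 0 fell (beside 8.38% of all genes higher), and 11 rose without replicate 1 (beside 11.1%), both with a median of 0.47. Without PBS replicate 1, 2 or 3, the higher genes numbered 4, 3 and 4. ACTA2, smooth muscle actin (ENSG00000107796, chromosome 10, 88935074 to 88991339), had TPM values of 21.2, 24.1 and 18.6 after PBS and 83.1, 123 and 88.3 at Acute 24 h. Every treated library was far above the highest control, and the log2(fold change) was 2.10 (SE 0.206, edgeR adjusted p = 0.000647) and 2.26 (SE 0.177, edgeR adjusted p = 2.21e-05) without replicate 1. TAGLN, the actin-binding protein transgelin, went from 9.85, 10.7 and 6.70 to 46.0, 71.7 and 47.1 (2.50 (SE 0.322, edgeR adjusted p = 0.00122)), and MYL9, a myosin light chain, from 6.19, 6.32 and 3.02 to 10.6, 20.2 and 12.9 (1.40 (SE 0.369, edgeR adjusted p = 0.0258)). Neither pair of groups overlapped, and in all 3 genes treated replicate 2 was the highest library. TPM1 and CNN2, which encode tropomyosin and calponin, rose by 0.89 and 0.52, and by 1.12 and 0.66 without replicate 1.

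The other members called were VCL, MYH9 and ACTN1, which link actin to adhesions or pull on it. ACTA2 and TAGLN passed in each of the 6 fits that left out 1 library, while MYL9 failed without any 1 of the PBS libraries or treated replicate 2. The summed TPM of the list was 8613 to 9259.7 after PBS and 7717, 11383 and 10755 at Acute 24 h, where replicate 1 was the lowest of the 6. Markers of mesenchymal and meningeal cells were low, with sums of 87.4 to 129 after PBS and 76.2 to 139 at Acute 24 h, and 1 of 9 rose (FOXC1) and 1 fell, as did 1 and 1 without replicate 1. Their part in the rise of the actin genes was not tested. Of 18 Hippo pathway targets and regulators, 8 rose and 0 fell (beside 8.38% and 7.09% of all genes), and 7 rose and 1 fell without replicate 1 (beside 11.1% each). Those that rose numbered 3, 1 and 1 without PBS replicate 1, 2 or 3. NUAK2, a kinase of this pathway, rose from 12.1, 13.8 and 12.4 to 31.5, 23.8 and 18.4 (0.80 (SE 0.142, edgeR adjusted p = 0.00554)), and WWTR1, YAP1 and TEAD1, the coactivators and their DNA-binding partner, rose by 0.64, 0.45 and 0.39.

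A part of the Wnt pathway rose at Acute 24 h. Of 48 tested, 12 rose and 2 fell with all 3 replicates and 23 rose and 4 fell without replicate 1 (medians 0.34 and 0.29), and leaving out each library in turn gave 1 to 23 higher. The shares over all genes were 8.38% higher and 7.09% lower, and 11.1% each without replicate 1. Among the secreted agonists, RSPO2, an R-spondin, had TPM values of 146, 151 and 126 after PBS and 188, 283 and 226 at Acute 24 h (log2(fold change) 0.62 (SE 0.178, edgeR adjusted p = 0.0355)). Among the targets, SP5, a transcription factor that Wnt signals induce directly (ENSG00000204335, chromosome 2, 170715337 to 170718078), went from 10.9, 9.02 and 14.8 to 26.5, 71.4 and 45.8 (1.97 (SE 0.492, edgeR adjusted p = 0.0223); 2.29 without replicate 1). AXIN2, the feedback inhibitor inside the cell, went from 33.8, 30.3 and 32.7 to 62.3, 70.3 and 59.9 (0.88 (SE 0.189, edgeR adjusted p = 0.0125)). In all 3 genes the groups were apart, and in SP5 and RSPO2 treated replicate 2 was the highest.

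DKK1 and SOST, secreted inhibitors of Wnt receptors, rose from 1.42, 1.09 and 1.12 to 3.32, 5.99 and 4.83 and from 2.41, 2.01 and 1.74 to 5.55, 13.1 and 9.17. Their log2(fold change) values were 1.87 (SE 0.388, edgeR adjusted p = 0.0113) and 2.09 (SE 0.379, edgeR adjusted p = 0.00614). TCF7 and ZNRF3, a transcription factor of the pathway and a ligase that removes its receptors, rose by 0.98 and 1.05, whereas WNT3, a ligand, fell, with a log2(fold change) of -0.97, from 6.48, 8.03 and 5.61 to 4.09, 3.12 and 3.96. The call of AXIN2 and DKK1 was lost without PBS replicate 2, that of SP5 without PBS replicate 1 or 2, and that of RSPO2 without any 1 of the PBS libraries or treated replicate 2. The summed TPM of the list was 1799.9 to 1897 after PBS and 2468 to 2802 at Acute 24 h.

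**Figure D3:**
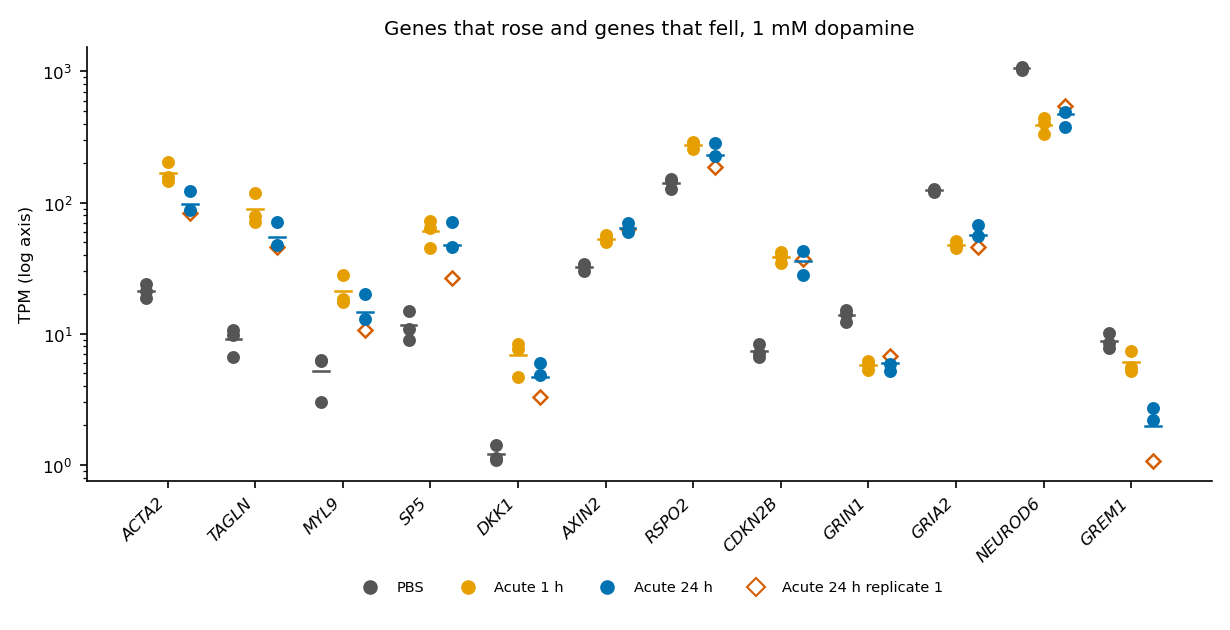
TPM on a log axis for 12 genes of the actin, Wnt, cell cycle, receptor and BMP groups in the PBS, Acute 1 h and Acute 24 h libraries of the 1 mM experiment, where each point is 1 library, the short bar the mean of 3 and the open diamond Acute 24 h replicate 1. ACTA2 and TAGLN lie above PBS at both times, GRIN1, GRIA2 and NEUROD6 lie below PBS at both times, and GREM1 lies below PBS at 1 h and further below it at 24 h.

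Of 49 genes of the TGFβ and BMP pathway, 8 rose and 1 fell, and 17 rose and 3 fell without replicate 1 (medians 0.37 and 0.17). Without PBS replicate 1, 2 or 3, the higher ones numbered 3, 2 and 3. Over all genes, 8.38% rose and 7.09% fell, and 11.1% each without replicate 1. ID1 and ID3, targets of BMP signals that inhibit differentiation factors, had TPM values of 135, 99.9 and 117 and 48.2, 47.3 and 52.3 after PBS and of 737, 276 and 194 and 189, 120.2 and 87.5 at Acute 24 h. Replicate 1 was the highest in both, and the other treated libraries were still above the controls. The log2(fold change) was 1.28 (SE 0.176, edgeR adjusted p = 0.00133) for ID3 and 1.60 (SE 0.351, edgeR adjusted p = 0.0137) for ID1, and 1.02 and 0.95 without replicate 1. BAMBI, a decoy receptor, rose from 34.9, 36.9 and 31.1 to 133, 64.7 and 53.7 (1.13 (SE 0.235, edgeR adjusted p = 0.0113); 0.74 without replicate 1), and BMP4, a ligand, by 1.05. GREM1, described above, was the only member that fell with all 3 replicates.

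CDKN2B, which encodes the cell cycle inhibitor p15 and is induced by TGFβ in many cells, was among the 12 largest rises (ENSG00000147883, chromosome 9, 22002903 to 22009305). It had TPM values of 6.63, 7.09 and 8.34 after PBS and 37.4, 42.5 and 28.0 at Acute 24 h, and every treated library was far above the highest control. Its log2(fold change) was 2.17 (SE 0.315, edgeR adjusted p = 0.00187) and 2.21 (SE 0.313, edgeR adjusted p = 0.000417) without replicate 1. Of 35 cell cycle genes tested, 0 rose and 1 fell (HMGB2, -0.33), and 2 rose and 5 fell without replicate 1. Of 20 FGF and ERK feedback genes, 7 rose and 0 fell (8 and 0 without replicate 1). Only 1, 0 and 2 of them rose without PBS replicate 1, 2 or 3. FGF17, a ligand, went from 4.81, 4.80 and 5.39 to 6.83, 19.9 and 11.7 (1.28 (SE 0.371, edgeR adjusted p = 0.0366)), and ETV4, SPRED3 and SPRY1, which are targets and inhibitors of ERK signals, rose by 0.43, 0.51 and 1.05. SPRY1 was much higher in replicate 1 than in any other library, and without that library its log2(fold change) was 0.36.

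The other large rises were of genes with low levels in PBS. CCDC103, a gene of cilia, went from 0.744, 0.312 and 0.640 to 8.18, 2.77 and 3.72 (2.92 (SE 0.458, edgeR adjusted p = 0.00292)), and TUBA8, a tubulin gene of a family with close copies whose reads may be split, from 0, 0.801 and 0.274 to 2.49, 1.57 and 2.40 (2.40 (SE 0.667, edgeR adjusted p = 0.032)). CD101 and IRF4, immune genes, reached 25.7, 4.91 and 4.67 and 9.24, 1.58 and 1.62, where replicate 1 was far above the others. GBP1, an interferon-induced GTPase, went from 0.325, 0.900 and 0.0513 to 2.76, 1.78 and 1.55 and LINC01239, a lncRNA, from 1.62, 0.953 and 2.65 to 11.2, 8.46 and 7.18. TENT5B, a gene of mRNA tail length that the study names, rose from 3.98, 3.88 and 2.51 to 16.6, 14.2 and 6.84 (1.72 (SE 0.293, edgeR adjusted p = 0.00454); 1.55 without replicate 1). All 3 treated libraries lay above all 3 controls in these genes, as they did in 25% of all genes tested. Except for TENT5B, the rule that picked these genes required it.

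In stress pathways, the size of the changes depended on replicate 1 and the number of genes called on the PBS libraries. Of 25 genes of ATF4 and the unfolded protein response, 15 rose and 0 fell, and 13 rose without replicate 1, while the median dropped from 0.88 to 0.31. Leaving out each library in turn gave 3 to 21, with 4, 3 and 3 without PBS replicate 1, 2 or 3. The summed TPM was 3337 to 3736 after PBS and 10146, 4648 and 5067 at Acute 24 h, all 3 above the controls. PDIA4, a protein folding enzyme, had TPM values of 203, 194 and 180.2 after PBS and 565, 305 and 301 at Acute 24 h, with a log2(fold change) of 0.88 (SE 0.157, edgeR adjusted p = 0.0058) and 0.61 (SE 0.0856, edgeR adjusted p = 0.000417) without replicate 1. SDF2L1, a chaperone partner, rose from 31.1, 35.1 and 31.1 to 102, 57.1 and 74.8 (1.12 (SE 0.175, edgeR adjusted p = 0.00292)). XBP1, a transcription factor of this response, had 435, 110.4 and 122 against 71.4, 71.6 and 65.6, and its log2(fold change) of 1.49 became 0.69 without replicate 1. SESN2 behaved likewise, with 1.39 and 0.52.

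Of 23 NRF2 target and regulator genes, 6 rose and 0 fell, and 10 rose and 1 fell without replicate 1 (medians 0.29 and 0.20). Higher genes numbered 2, 2 and 3 without PBS replicate 1, 2 or 3. Over all genes, 8.38% rose and 7.09% fell, and 11.1% each without replicate 1. NQO1, a quinone reductase, had TPM values of 21.4, 19.3 and 22.5 after PBS and 44.5, 48.9 and 39.1 at Acute 24 h, without overlap (log2(fold change) 0.95 (SE 0.153, edgeR adjusted p = 0.00338), and 1.01 without replicate 1). TXNRD1, thioredoxin reductase, went from 62.9, 67.2 and 72.8 to 158, 107 and 116 (0.78 (SE 0.103, edgeR adjusted p = 0.00126)), and GSR, glutathione reductase, rose by 0.45. SLC7A11, the cystine importer, reached 48.6, 11.0 and 14.2 from 6.45, 7.81 and 8.51, and HMOX1, heme oxygenase, 67.1, 13.3 and 13.2 from 8.48, 5.71 and 5.86. In these last genes replicate 1 was far above the other treated libraries, which were still above the controls. Their log2(fold change) values of 1.51 and 2.02 were 0.68 and 0.94 without replicate 1.

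Of 21 p53 targets, 5 rose and 0 fell (6 and 2 without replicate 1), and the median went from 0.60 to 0.11. The count of higher genes was 0 without any 1 of the PBS libraries. The shares over all genes were 8.38% higher and 7.09% lower (11.1% each without replicate 1). MDM2, the ligase that p53 induces against itself, had TPM values of 34.4, 32.1 and 33.8 after PBS and 166, 47.1 and 48.6 at Acute 24 h (1.21 (SE 0.311, edgeR adjusted p = 0.0243); 0.47 (SE 0.0659, edgeR adjusted p = 0.000417) without replicate 1). BAX, GADD45A and TP53I3 rose by 0.59, 1.17 and 0.71, and by 0.34, 0.42 and 0.74 without replicate 1. MDM2, BAX, GADD45A and TP53I3 lost their call without any 1 of the 3 PBS libraries, and TP53I3 also without Acute 24 h replicate 2. Of 15 heat shock genes, 0 passed edgeR's test by exon reads with all 3 replicates (6 at an unadjusted p under 0.05, and 3 higher by DESeq2), although replicate 1 held a summed TPM of 8346 against 3956 to 4294 in the other 5 libraries, and 12 rose by total gene reads. Without replicate 1, 2 of them fell.

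Immediate early genes are among the measures for which replicate 1 had been set apart, so their values with and without it are a description. Of 34 tested, 7 rose and 1 fell, with a median of 0.74, and without replicate 1, 3 rose and 4 fell, with a median of -0.10. The count of higher genes was 0, 1 and 1 without PBS replicate 1, 2 or 3 and 14 and 20 without Acute 24 h replicate 2 or 3. Their summed TPM was 6355 in replicate 1, 1641 and 1646 in the other treated libraries, and 1644 to 1831 after PBS. FOS was not called in either fit, with log2(fold change) values of 0.72 and -0.40 and adjusted p-values of 0.273 and 0.135 by edgeR. JUNB had TPM values of 27.8, 29.2 and 26.4 after PBS and 117, 28.6 and 22.8 at Acute 24 h (0.80 (SE 0.400, edgeR adjusted p = 0.17); -0.17 without replicate 1), and FOSB had 0.332, 0.438 and 0.988 and 2.23, 0.761 and 0.572 (0.76 (SE 0.483, edgeR adjusted p = 0.279), and edgeR adjusted p = 0.88 without replicate 1). The log2(fold change) of FOSB was 0.12 to 1.36 with 1 library left out. These groups overlapped.

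EGR1, a zinc finger factor, had TPM values of 19.2, 13.9 and 17.8 after PBS and 696, 27.8 and 25.8 at Acute 24 h. Its log2(fold change) was 3.63 (SE 0.931, edgeR adjusted p = 0.0239) with all 3 replicates and 0.61 (SE 0.205, edgeR adjusted p = 0.0437) without the first. The other treated libraries thus stayed above the controls by a small margin. ATF3, a factor induced by stress, kept the larger difference, with TPM values of 13.1, 15.3 and 10.2 and 113, 27.3 and 25.6 and log2(fold change) values of 1.91 (SE 0.411, edgeR adjusted p = 0.0128) and 0.98 (SE 0.176, edgeR adjusted p = 0.0018) without replicate 1. KLF4 rose by 1.21 and 0.71. GADD45B passed with replicate 1 (1.92 (SE 0.602, edgeR adjusted p = 0.047)) and did not pass without it (0.51 (SE 0.286, edgeR adjusted p = 0.204)).

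NR4A3, an orphan nuclear receptor, went the other way, with TPM values of 20.1, 18.7 and 22.8 after PBS and 13.8, 8.26 and 7.86 at Acute 24 h, all treated libraries below the controls. Its log2(fold change) was -1.19 (adjusted p = 0.00225 by edgeR) and -1.40 without replicate 1. ARC, which encodes a protein of dendrites, changed sign without replicate 1, as FOS, JUN, JUNB and KLF10 did. Its TPM was 12.7, 13.4 and 11.2 after PBS and 40.8, 6.85 and 8.96 at Acute 24 h, the first treated library above and the others below all controls, with a log2(fold change) of 0.38 (SE 0.438, edgeR adjusted p = 0.561), and of -0.70 (SE 0.173, edgeR adjusted p = 0.0109) without replicate 1. Like ARC, KLF10 and MAFF passed as lower without replicate 1 only. SLC16A6, a transporter, was among the 8 genes with the largest ratio of replicate 1 to its fellows, at 143, 2.97 and 5.48 against 7.52, 6.04 and 2.64 after PBS. EGR1 and 6 genes known by clone names were the others, and the 8 genes with the smallest ratio, NPVF and H2AC19 among them, had a TPM of 0 in replicate 1.

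**Figure D4:**
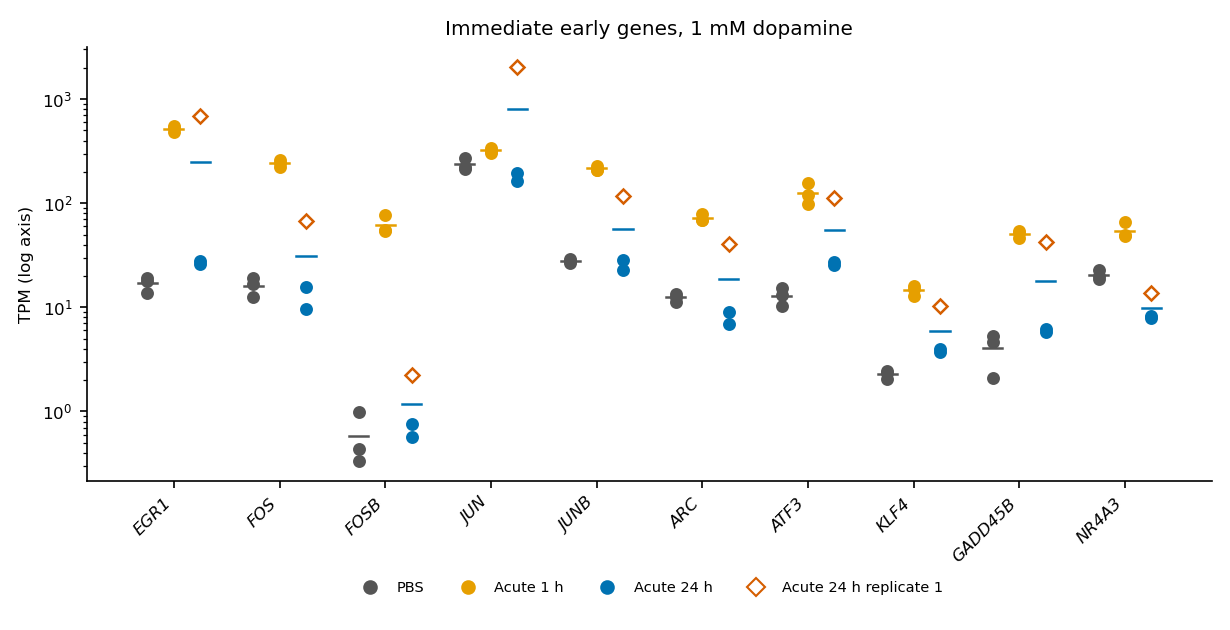
TPM on a log axis for 10 immediate early genes in the PBS, Acute 1 h and Acute 24 h libraries of the 1 mM experiment, where each point is 1 library, the short bar the mean of 3 and the open diamond Acute 24 h replicate 1. The diamond lies above the other Acute 24 h libraries in all 10 genes, and the other 2 Acute 24 h libraries lie near the PBS libraries and mostly far below Acute 1 h.

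Several receptor and synaptic genes fell. Of 15 genes of NMDA, AMPA and kainate receptors, 1 rose and 6 fell (1 and 7 without replicate 1). GRIN1, the shared subunit of NMDA receptors (ENSG00000176884, chromosome 9, 137139154 to 137168756), had TPM values of 15.3, 12.3 and 14.1 after PBS and 6.81, 5.21 and 5.87 at Acute 24 h. GRIA2, the AMPA receptor subunit that limits calcium entry (ENSG00000120251, chromosome 4, 157204182 to 157366075), had 126, 126 and 120.2 and 46.0, 55.6 and 68.0. In both the treated libraries lay well below the controls, with log2(fold change) values of -1.34 (SE 0.139, edgeR adjusted p = 0.000647) for GRIN1 and -1.24 (SE 0.151, edgeR adjusted p = 0.000958) for GRIA2. GRIA1 and GRIK2 fell, with log2(fold change) values of -0.68 and -0.63, and -0.56 and -0.66 without replicate 1. The summed TPM of the list was 475 to 499 after PBS and 336, 359 and 376 at Acute 24 h.

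Of 12 GABA-A receptor genes, 0 rose and 3 fell (beside 7.09% of all genes lower), and 5 fell without replicate 1 (beside 11.1%). GABRA4, an α subunit of the striatum, had TPM values of 3.98, 3.63 and 4.13 after PBS and 3.00, 1.57 and 1.79 at Acute 24 h (-1.04 (SE 0.188, edgeR adjusted p = 0.00617)). Its groups did not overlap, while GABRA2 met the controls in replicate 1, with 20.9, 13.5 and 12.6 against 20.9, 22.0 and 23.4 (-0.64 (SE 0.144, edgeR adjusted p = 0.0155)).

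Of 30 synaptic proteins, 0 rose and 10 fell (1 and 14 without replicate 1, medians -0.28 and -0.20). CNTN1, an adhesion protein of axons, had TPM values of 88.4, 87.1 and 98.9 after PBS and 53.5, 48.4 and 48.2 at Acute 24 h (-0.99 (SE 0.0980, edgeR adjusted p = 0.000647)), and SYT4, a synaptotagmin, 253, 231 and 272 and 177, 148 and 151 (-0.79 (SE 0.103, edgeR adjusted p = 0.00123)). Both groups were narrow and apart. CAMK2B and SYT1 fell, with log2(fold change) values of -0.65 and -0.42. Of 26 potassium and sodium channels, 1 rose and 5 fell (1 and 10 without replicate 1). KCNJ4 and KCNJ9, inward rectifiers, fell, with log2(fold change) values of -1.05 and -0.85, as did SCN3B, a sodium channel subunit (-0.37).

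Among the markers of glutamatergic neurons, the most abundant fell too. Of 7 tested, 0 rose and 3 fell (4 without replicate 1). NEUROD6 (ENSG00000164600, chromosome 7, 31337465 to 31340726) had the TPM values given above after PBS and 547, 376 and 491 at Acute 24 h, far below the controls. Its log2(fold change) was -1.30 (SE 0.148, edgeR adjusted p = 0.000958) and -1.34 (SE 0.152, edgeR adjusted p = 0.000128) without replicate 1. NEUROD2, a related factor, went from 354, 389 and 478 to 268, 179 and 217 (-1.01 (SE 0.150, edgeR adjusted p = 0.00206)), and SLC17A7, the vesicular glutamate transporter, from 70.5, 77.5 and 78.5 to 31.6, 22.3 and 29.8 (-1.56 (SE 0.274, edgeR adjusted p = 0.00525)). All 3 genes passed in each of the 6 fits that left out 1 library. The summed TPM of these markers was 1752 to 1940.3 after PBS and 812 to 1127 at Acute 24 h, and that of 9 general neuronal markers 3926 to 4548 and 2002, 3653 and 3393. In the latter list, 3 fell and 0 rose (4 and 0 without replicate 1), and STMN2 had 1505, 1472 and 1662 and 667, 1228 and 1184, while RBFOX3, the NeuN gene, fell, with a log2(fold change) of -0.49. The part of these markers in the fall of the receptor and synaptic genes was not tested.

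Of 28 markers of medium spiny neurons, 5 rose and 2 fell (7 and 5 without replicate 1, medians 0.18 and 0.02). Over all genes, 8.38% rose and 7.09% fell, and 11.1% each without replicate 1. ZNF503 and SP9, transcription factors of the striatal lineage, rose from 45.4, 39.3 and 35.9 to 125, 91.8 and 77.3 (1.15 (SE 0.190, edgeR adjusted p = 0.00379)) and from 6.60, 5.04 and 5.37 to 12.2, 10.7 and 12.3 (0.93 (SE 0.160, edgeR adjusted p = 0.00479)). PPP1R1B and ADCY5, the adenylyl cyclase of striatal neurons, fell, with log2(fold change) values of -0.91 and -0.40, PPP1R1B to 11.0, 12.2 and 14.8 and ADCY5 from 29.2, 29.5 and 30.2 to 26.7, 22.3 and 24.4. Their groups did not overlap, and the call of PPP1R1B was lost without PBS replicate 1 or 2. BCL11B had 89.2, 37.0 and 39.5 and overlapped the controls, with a log2(fold change) of 0.074 (SE 0.213, edgeR adjusted p = 0.829) that became -0.35 (SE 0.100, edgeR adjusted p = 0.0231) without replicate 1. EBF1 rose by 0.76 by exon reads and stood at -0.12 by total gene reads. Of 12 GABA neuron and DLX genes, 1 rose and 1 fell (3 and 1 without replicate 1). GAD2, a GABA-synthesising enzyme, rose from 5.01, 4.04 and 4.49 to 7.97, 7.89 and 8.80 (0.75 (SE 0.150, edgeR adjusted p = 0.00932)). GAD1, the major enzyme of GABA synthesis, had 32.3, 30.2 and 30.4 and 22.7, 38.5 and 31.5 and did not pass (-0.10 (SE 0.172, edgeR adjusted p = 0.712), and 0.13 without replicate 1).

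Among 8 dopamine and adenosine receptor genes tested, 1 fell, and it was ADORA2B, the low-affinity adenosine receptor, which went from 4.40, 4.90 and 4.46 to 4.06, 1.58 and 2.63 (-0.90 (SE 0.271, edgeR adjusted p = 0.042)). This call was lost in 5 of the 6 fits that left out 1 library and was kept without Acute 24 h replicate 1. DRD1 had TPM values of 5.16, 0.786 and 0.887 at Acute 24 h, the first above and the others within the PBS range, with a log2(fold change) of 0.25 (SE 0.593, edgeR adjusted p = 0.79) that was -0.99 without replicate 1. DRD2 had 6.60, 3.80 and 4.92, all above the controls, and did not pass (0.64 (SE 0.218, edgeR adjusted p = 0.0596)). DRD5 had 0.443, 1.12 and 1.57 and 0.423, 0.711 and 0.752 (-0.79 (SE 0.448, edgeR adjusted p = 0.225)), and ADORA2A, an adenosine receptor gene of striatal neurons, 5.28, 5.80 and 4.88 and 11.9, 4.13 and 5.55 (0.26 (SE 0.316, edgeR adjusted p = 0.576), and -0.19 without replicate 1). All of these receptors were low. MAOA, which encodes monoamine oxidase A and breaks dopamine down, fell from 10.1, 9.23 and 9.61 to 6.31, 4.36 and 4.74 (-1.04 (SE 0.208, edgeR adjusted p = 0.00946)), and GCH1, which makes the cofactor of dopamine synthesis, rose from 3.51, 3.99 and 3.67 to 8.83, 6.28 and 6.59 by exon reads (0.82 (SE 0.177, edgeR adjusted p = 0.0128)) but not by total gene reads (-0.045 (SE 0.156, edgeR adjusted p = 0.838)). These were the 2 members called of 7 tested, and without replicate 1 again 1 rose and 1 fell.

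Of 30 genes of cyclic AMP signalling, 5 rose and 4 fell (4 and 9 without replicate 1). The shares over all genes were 8.38% higher and 7.09% lower (11.1% each without replicate 1). RGS8, a regulator of G proteins, rose from 34.0, 30.8 and 26.9 to 67.8, 54.4 and 51.4 (0.79 (SE 0.124, edgeR adjusted p = 0.00292)), and PDE4B, a phosphodiesterase, and ADCY1 fell, with log2(fold change) values of -0.69 and -0.53. RGS16 had 81.6, 79.6 and 63.9 after PBS and 839, 113 and 119 at Acute 24 h, with a log2(fold change) of 2.04 that was 0.57 without replicate 1. Of 19 neuropeptide genes, 0 rose and 4 fell: NPY, neuropeptide Y, went from 7.96, 11.4 and 16.8 to 4.51, 3.08 and 3.34 (-1.86 (SE 0.440, edgeR adjusted p = 0.0183)), NTS, neurotensin, from 80.8, 58.3 and 51.8 to 11.9, 29.2 and 37.4 (-1.34 (SE 0.325, edgeR adjusted p = 0.0201)), and NRN1 and CHGB fell, with log2(fold change) values of -0.98 and -0.42. Without replicate 1, 1 rose and 4 fell.

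Of the remaining lists, several lost or changed their calls with replicate 1. Of 13 mitochondrially encoded mRNAs, 0 passed edgeR's test with all 3 replicates (3 at an unadjusted p under 0.05, and 2 lower by DESeq2) and 4 fell without replicate 1, in which their summed TPM was 38961 against 110980 to 128600 in the other 5 libraries. Of 16 circadian clock genes, 0 passed with edgeR (1 at an unadjusted p under 0.05, 0 by DESeq2), and 7 fell without replicate 1. Their sum was 1136 in that library, 320.5 and 353 in the other treated libraries and 397 to 453 after PBS. Of 15 CLK kinases and SR splicing factors, 3 rose with all 3 replicates, whereas 1 rose and 5 fell without the first. TRA2B rose in both, by 0.57 and 0.33.

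Smaller numbers were called elsewhere, beside 8.38% of all genes higher and 7.09% lower (11.1% each without replicate 1). Of 20 Notch pathway genes, 1 rose and 3 fell (1 and 4 without replicate 1), with the ligands JAG2 and DLL3 lower, at -0.51 and -1.005 and DLL1 higher, at 0.47 (0.28 without replicate 1), and the target HES4 lower, at -0.73 (-0.45). The calls of DLL1 and HES4 were lost without any 1 of the PBS libraries. Of 26 nuclear genes of the respiratory chain, 1 fell (UQCRC2), and 3 fell without replicate 1. By total gene reads, 2 rose and 0 fell (beside 18.3% and 25.5% of all genes). By that measure without replicate 1, 16 rose and 0 fell, beside 6244 and 7076 of all 26643 genes. Of 19 interferon response genes, 2 fell (IFI6 and BST2), and 3 without replicate 1. Of 9 NF-kB genes, 1 rose in both fits. SLC40A1, the iron exporter ferroportin, was the 1 of 11 iron genes that fell, from 7.48, 9.88 and 5.82 to 1.94, 3.51 and 4.49 (-1.29 (SE 0.284, edgeR adjusted p = 0.0141)), and MT3, the metallothionein of brain, was the 1 of 7 metallothionein and zinc export genes, from 12.1, 17.8 and 12.6 to 0.572, 4.51 and 6.27 (-1.90 (SE 0.485, edgeR adjusted p = 0.0235)). Both were again the only members called of these lists without replicate 1. The ascorbate transporter tested did not pass with edgeR or DESeq2.

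Of the markers of other cell types, 2 of 7 for astrocytes fell, AQP4 from 2.04, 1.84 and 2.60 to 1.18, 1.07 and 1.14 (-1.05 (SE 0.227, edgeR adjusted p = 0.0128)) and SLC1A2 (-0.59), and 2 of 8 for radial glia, HOPX (-1.25) and PTPRZ1 (-0.68). Without replicate 1, 1 rose and 2 fell in each of these lists. CDC20B fell among 11 markers of multiciliated cells (-2.52), and MAF rose among 4 of interneurons of the medial ganglionic eminence (0.84 (SE 0.130, edgeR adjusted p = 0.00271)). Without replicate 1, 1 rose and 1 fell of the former and 1 rose of the latter. For oligodendrocyte, microglia, endothelial and pluripotent cells, 0 of 7, 2, 4 and 2 markers passed edgeR's test (1, 0, 2 and 1 at an unadjusted p under 0.05), and DESeq2 called 1 endothelial marker lower. Without replicate 1, 1 pluripotency marker rose. The 6 microglia markers summed to a TPM of 1.44 to 4.26 over the 6 libraries.

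**Figure D5:**
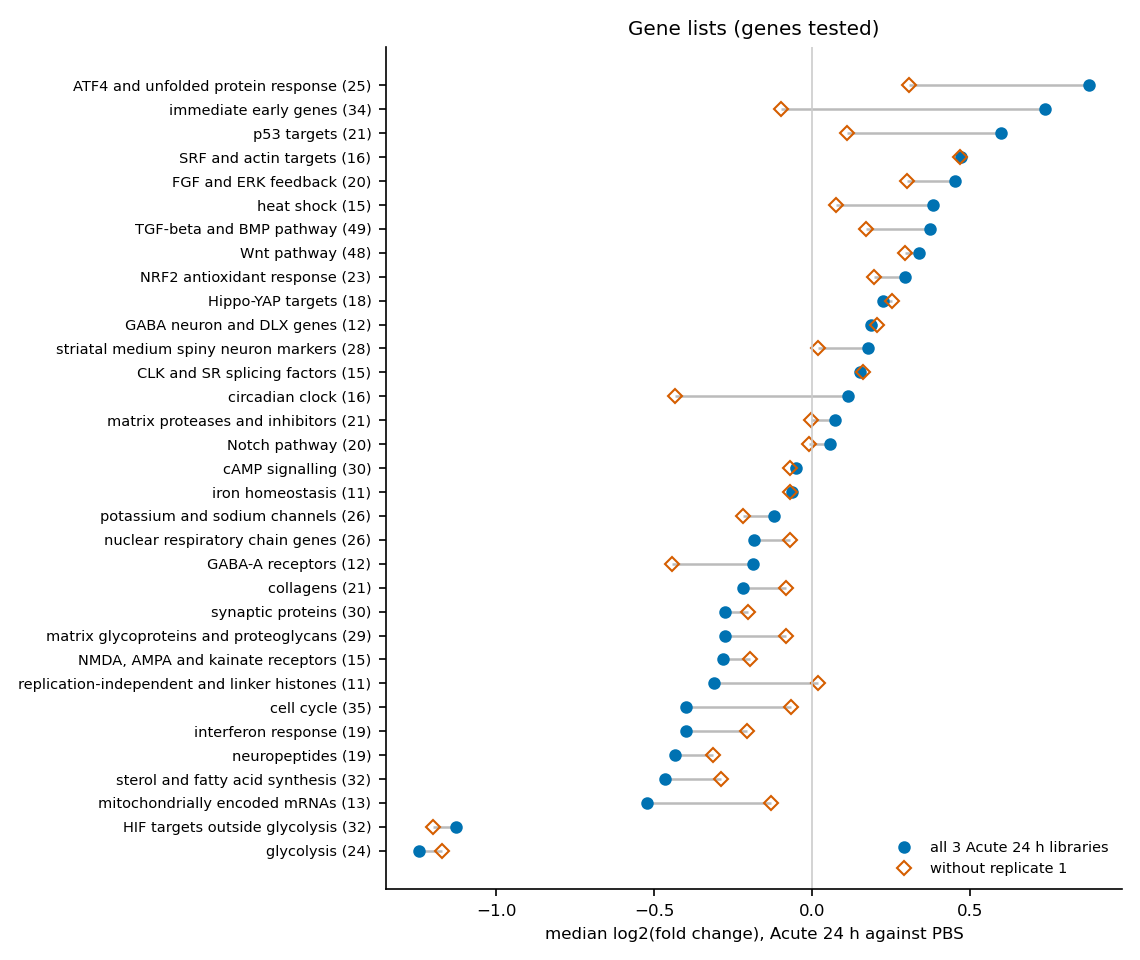
Median log2(fold change) at Acute 24 h against PBS by exon reads for the 33 gene lists with at least 10 genes tested, with all 3 replicates and without replicate 1. Glycolysis and HIF targets stand lowest under both, near -1.2, while immediate early genes move from 0.74 to -0.10 and p53 targets from 0.60 to 0.11 when replicate 1 is left out.

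Of the 154 genes that were named and called with all 3 replicates, 70 were called in each of the 6 fits that left out 1 library. The call was lost for 61, 76 and 50 of them without PBS replicate 1, 2 or 3 and for 1, 13 and 3 without Acute 24 h replicate 1, 2 or 3. A total of 38 lost it without any 1 of the PBS libraries. These were HIF3A, HMOX1 and GSR, the actin and Hippo genes MYL9, MYH9, TPM1, CNN2 and TEAD1, the matrix genes COL4A2, MMP14 and MMP17, and the signal genes RSPO2, BMP4, FGF17, ETV4, SPRY1, RGS16, DLL1 and HES4. They further held the stress and immediate early genes XBP1, SESN2, MDM2, BAX, GADD45A, TP53I3, EGR1, KLF4 and GADD45B, with STMN2, ADORA2B, INSIG1, HMGB2, UQCRC2, IFI6, IRF4, HOPX, TRA2B and H1-10.

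The contrast of Acute 1 h with PBS shares its control libraries with that of Acute 24 h, and its values are given only side by side. At Acute 1 h, where 8.04% of all genes rose and 7.94% fell, 18 of the 24 glycolysis genes and 26 of the 32 HIF targets fell and 0 rose. In the same contrast, 26 of 34 immediate early genes, 13 of 16 actin genes and 19 of 48 Wnt genes rose. A direct test of Acute 24 h against Acute 1 h called 621 genes, 376 higher (2.11%) and 245 lower (1.38%), and 948 (5.22%) and 742 (4.08%) without replicate 1.

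Of 34 immediate early genes, 17 were lower at 24 h than at 1 h with all 3 replicates, and 32 without replicate 1, the latter as a description. FOSB had TPM values of 76.5, 54.0 and 55.4 at 1 h, and the difference was -6.01 (SE 0.393, edgeR adjusted p = 9.56e-06), or -6.63 without replicate 1. EGR1 had 532, 483 and 551 at 1 h, a difference of -1.38 (SE 0.830, edgeR adjusted p = 0.278), or -4.38. ACTA2 had 204, 147 and 157 at 1 h, with a difference of -0.95 (SE 0.195, edgeR adjusted p = 0.0245), and of -0.78 (SE 0.166, edgeR adjusted p = 0.0088) without replicate 1. Of the actin genes, 3 of 16 were lower at 24 h than at 1 h (7 without replicate 1), and of the linker and replication-independent histones 7 of 11 (9).

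In other groups few members passed this test. Of 24 glycolysis genes 2 were lower at 24 h than at 1 h (3 without replicate 1), and of 32 HIF targets 1 was higher (2). The values that follow are without replicate 1. NEUROD6 had 404, 439 and 333 at 1 h, with a difference of 0.042 (SE 0.147, edgeR adjusted p = 0.896), and GRIA2 had 44.9, 50.7 and 47.6, with 0.27 (SE 0.101, edgeR adjusted p = 0.104). Those p-values do not show that the times were alike. GREM1, in contrast, had 7.45, 5.55 and 5.17 at 1 h and was lower at 24 h (-1.40 (SE 0.165, edgeR adjusted p = 6.81e-05)). APLN was lower at 24 h as well, at -2.14 (SE 0.578, edgeR adjusted p = 0.0302). Of the 361 DEGs, 20 differed between the times without replicate 1, beside 9.3% of all genes tested.

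The 1 µM experiment had its own 3 PBS libraries, and its Acute 24 h libraries were tested alone and against 1 mM with an interaction term over 30 libraries. The dose and the experiment cannot be told apart in this test. At 1 µM, 231 genes rose (1.4% of 16541) and 316 fell (1.91%), with 196 DEGs. Of the 24 glycolysis genes, 13 fell at 1 µM, and of the 32 HIF targets 17 fell, with 0 higher in both lists and medians of -0.89 and -0.96. Among these libraries, 1 µM PBS replicate 2 stood apart, with a mitochondrial share of 12.4% and 16085 genes with exon reads, against 4.25% and 5.44% and 21299 and 20989 genes in the other controls, and Acute 24 h replicate 1 had a share of 10.3% against 6.25% and 5.56%. The difference between the doses passed for 122 of 18390 genes, 89 with the higher value at 1 mM (0.484%) and 33 with the lower (0.179%), and for 104 (74 higher, 0.391%, and 30 lower, 0.159%) without replicate 1. It passed for 80, 83 and 90 genes without 1 µM PBS replicate 1, 2 or 3 and for 63, 59 and 54 without 1 µM Acute 24 h replicate 1, 2 or 3. Of the 361 DEGs, 360 entered the fit without 1 mM replicate 1, and 9 passed.

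ALDOC at 1 µM had TPM values of 124, 78.5 and 141 after PBS and 24.9, 31.5 and 36.9 at Acute 24 h, a log2(fold change) of -1.91 (SE 0.216, edgeR adjusted p = 0.00031) beside -2.94 at 1 mM, and the difference was -0.96 (SE 0.553, edgeR adjusted p = 0.655) without replicate 1. SLC16A3 had 9.94, 4.74 and 12.7 and 0.149, 0.877 and 0.562 at 1 µM, with -4.04 (SE 0.437, edgeR adjusted p = 0.000197). BNIP3 had -1.80, PGK1 -1.38 and VEGFA -1.60. HILPDA, a gene of lipid droplets, differed by dose in both fits: at 1 mM it went from 168, 125 and 77.5 to 13.9, 36.0 and 38.4, at 1 µM from 41.5, 27.7 and 37.2 to 27.0, 36.6 and 41.3, and the difference was -2.07 (SE 0.412, edgeR adjusted p = 0.0151), and -1.71 (SE 0.321, edgeR adjusted p = 0.00855) without replicate 1. It was lost without 1 mM PBS replicate 1. LOX, a lysyl oxidase of the matrix and the other HIF target called, passed with all 3 replicates (1.42 (SE 0.337, edgeR adjusted p = 0.0447)) and not without the first (1.48 (SE 0.353, edgeR adjusted p = 0.0542)). It passed in 1 of the 12 fits that left out 1 of the libraries compared. LOX fell at 1 mM, with a log2(fold change) of -0.98 to -0.68 with 1 library left out, so its positive difference means a lower value at 1 µM.

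Of the genes that rose at 1 mM, ACTA2 had TPM values of 6.00, 4.70 and 4.87 after PBS and 2.47, 3.32 and 3.63 at Acute 24 h in the 1 µM experiment, with a log2(fold change) of -0.79 (SE 0.438, edgeR adjusted p = 0.398) and a difference between doses of 3.05 (SE 0.388, edgeR adjusted p = 0.000234) without replicate 1. TAGLN, TPM1 and CDKN2B differed by 3.31, 1.56 and 2.59 without replicate 1, with adjusted p-values of 0.00739, 0.000244 and 0.0108 by edgeR. RSPO2, a Wnt agonist, rose at 1 µM too (0.94 (SE 0.116, edgeR adjusted p = 0.000649)), and the dose difference was -0.12 (SE 0.182, edgeR adjusted p = 0.947) without replicate 1. NEUROD6 at 1 µM had 656, 752 and 767 after PBS and 658, 623 and 649.7 at Acute 24 h (-0.24 (SE 0.229, edgeR adjusted p = 0.668)), and the dose difference of -1.10 (SE 0.291, edgeR adjusted p = 0.0915) without replicate 1 did not pass. With all libraries the difference did not pass either (-1.07 (SE 0.272, edgeR adjusted p = 0.0653)). It passed in 2 of the 12 fits that left out 1 of the libraries compared, among them that without 1 µM PBS replicate 2 (-1.26, edgeR adjusted p = 0.0359).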

How the data were processed

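RNA-seq libraries of hMSN-like cells were analysed from the tables of each library, with 60676 genes per table. The authors mapped reads in CLC Genomics Workbench to hg38 (GRCh38) with Ensembl gene models and deposited counts of total exon, intron, total gene and uniquely mapped gene reads. The deposited TPM values are exon reads per exon length, scaled by the authors to 1 common total per library, and were used for levels only. The strand setting of the counting and the sequencing run of each library are not given in the sources used here. A gene whose exon length is 0 in the table (21617 genes) has no TPM.

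Genes that passed filterByExpr (minimum count 10, minimum total count 15) were normalized by TMM and tested with edgeR 4.0.16 (quasi-likelihood test, limma 3.58.1, R 4.3.3) over the 15 libraries of the 1 mM experiment, in 5 groups, with Benjamini-Hochberg adjustment over all genes tested. DESeq2 1.42.0 was an alternative. Tables and plots used Python 3.11.15, numpy 2.4.6, pandas 2.3.3 and matplotlib 3.10.9. On counts simulated for Acute 24 h against PBS over 17473 genes, edgeR recovered 79% of 100 genes changed 2-fold and 99% of 100 changed 4-fold, with 12 false calls. DESeq2 recovered 91% and 100%, with 40 false calls. The changed genes were all above a minimum mean level, and no simulated library was made to stand apart as replicate 1 did. These shares therefore do not cover genes of few reads or the effect of such a library. Intervals of shares are Wilson 95% intervals and cover counting error only. No 2 libraries held identical exon reads.

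The comparison, the 51 gene lists and the tests were chosen with earlier results of these data known. Genes named were the 12 largest rises and falls among DEGs of both fits and of total gene reads whose groups did not overlap, up to 4 members of each list that passed in the same direction in both fits with the smallest adjusted p-values without replicate 1, genes the study names, dopamine receptor genes and ADORA2A, and the 8 genes with the largest and the 8 with the smallest ratio of replicate 1 to the mean of the other treated libraries, among genes with a group mean TPM of at least 5. The promoters were those of the 3 HIF and glycolysis members with the largest changes that held the core. SLC2A1, HK2, PGK1, PKM, LDHB, SLC16A1, VEGFA, HILPDA, HIF1A, CA12, MXI1, ERO1A, RORA, JMJD6, HMOX1, MYL9, VCL, MYH9, ACTN1, TCF7, ZNRF3, WNT3, BMP4, KLF10, MAFF, JUN, LOX, GAD1, BCL11B, PPP1R1B, MAP2 and TUBB3 were named outside this rule after their values were seen. Some genes that the rule picked are not reported here.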

Additional observations from a re-analysis of the deposited data

Results flagged for a closer look

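The change at Acute 24 h differed between the 1 mM and the 1 µM experiment for 15 of the genes named above, by edgeR's test of the difference itself (1 mM minus 1 µM, an interaction term over 30 libraries). Of the genes named, 180 were tested at 1 mM, and most were picked by their values there, which are also part of this difference. The count and its directions are therefore a description. Over all 18390 genes, the difference passed for 0.484% with the higher value at 1 mM and for 0.179% with the lower. The experiments had separate PBS libraries, so that the dose and the experiment cannot be told apart. Leaving out each of the 12 libraries compared in turn kept the call of 7 genes in every fit (ACTA2, ADAMTS1, CDKN2B, GRIA1, NTS, TAGLN and TPM1). HILPDA lost it without 1 mM PBS replicate 1, and ATF3, FBN2, GAD1, GADD45A, PDIA4, SPRY1 and XBP1 in 3 to 8 of the 12 fits. No test for a single outlying value was run in groups of 3.

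In 12 genes the log2(fold change) was higher at 1 mM. The differences were 2.87 for ACTA2, 3.12 for TAGLN and 1.31 for TPM1, all of the actin list, with adjusted p-values of 0.00101, 0.0109 and 0.0135 by edgeR. ACTA2, TAGLN and TPM1 stood at 2.10, 2.50 and 0.89 at 1 mM and at -0.79, -0.63 and -0.43 at 1 µM, where none of the 3 passed edgeR's test. The difference was 2.52 for CDKN2B, 1.83 for ADAMTS1 and 1.01 for FBN2, and 2.59, 1.53 and 1.05 without Acute 24 h replicate 1.

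For ATF3, GADD45A, PDIA4, SPRY1 and XBP1, genes of stress and feedback signals, the differences of 2.18, 1.71, 1.19, 1.60 and 1.85 were smaller without that library, at 1.29, 0.99, 0.94, 0.93 and 1.07. All 5 passed in both fits. GAD1 differed by 1.46. It fell at 1 µM, with a log2(fold change) of -1.56 (SE 0.274, edgeR adjusted p = 0.00724), and had -0.10 at 1 mM, which did not pass.

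In 3 genes it was lower at 1 mM. HILPDA differed by -2.07, NTS by -2.03 and GRIA1 by -0.92, and by -1.71, -1.66 and -0.79 without replicate 1. NTS and GRIA1 had 0.68 and 0.23 at 1 µM, which did not pass edgeR's test.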

How the results depend on the processing

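The number of DEGs higher at Acute 24 h (261) became 539 by total gene reads, 668 by uniquely mapped gene reads, 144 without replicate 1 in its own 5 libraries and 972 at an absolute log2(fold change) of 0.5, and the lower ones (398) became 894 at 0.5. Fits of the 6 libraries alone gave 0 by edgeR in both directions and 121 higher by DESeq2. Leaving out 1 library gave 39 to 708 higher and 167 to 630 lower DEGs. By adjusted p-value alone (1492 higher, 1263 lower), the counts were 4759 and 6629 by total gene reads, 5499 and 6478 by uniquely mapped reads, 2297 higher by DESeq2, 560 and 755 by DESeq2 on the 6 libraries, 6244 and 7076 without replicate 1 by total gene reads, 2306 and 2278 without it in 5 libraries, and 130 to 2868 and 361 to 2022 with 1 library left out. Acute 24 h against Acute 1 h (621) gave 2271 by DESeq2 and 79 to 3423 with 1 library left out, and the dose difference (122) 574 by total gene reads, 440 by DESeq2 and 41 to 519. The cause was not tested.

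Replicate numbers did not pair the libraries: residuals of same-numbered Acute 24 h and PBS libraries correlated at -0.062 on average. With the number as a block, 170 DEGs were higher (979 by adjusted p-value) and 276 genes differed from Acute 1 h.

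Of 180 genes, 13 changed sign without replicate 1. Their log2(fold change) ranges with 1 library left out are followed by those without replicate 1 in 5 libraries and by total gene reads, where reversed: ADORA2A -0.19 to 0.49 (-0.19), ARC -0.70 to 0.74 (-0.71, -0.43), BCL11B -0.35 to 0.24 (-0.35, -0.085), CA12 -0.32 to 0.35 (-0.32, -0.13), DRD1 -0.99 to 0.63 (-0.99, -0.66), FOS -0.40 to 1.14 (-0.39, -0.12), JMJD6 -0.25 to 0.40 (-0.25), JUN -0.44 to 1.99 (-0.44, -0.15), JUNB -0.17 to 1.17 (-0.17), KLF10 -0.45 to 1.55 (-0.45, -0.15), RORA -0.65 to 0.66 (-0.65, -0.45), SLC16A6 -0.40 to 3.51 (-0.40, -0.16) and GAD1, which turned upwards, -0.35 to 0.13 (0.12, 0.52). BCL11B (-0.026) and DRD1 (-0.14) also reversed without PBS replicate 2 and 3 in turn. By total gene reads, uniquely mapped reads and total gene reads without replicate 1, EBF1 (-0.12, -0.090, -0.13), GAD1 (0.25, 0.26, 0.52), GCH1 (-0.045, -0.0015, -0.092), LDHB (0.073, 0.13, 0.20), MAP2 (0.051, 0.081, 0.13) and PKM (0.029, 0.051, 0.22) reversed, as did HMGB2 (0.0036) and UQCRC2 (0.0016) by uniquely mapped reads, and SLC16A1 (0.0066), TUBB3 (0.088) and UQCRC2 (0.036) in the last. DESeq2, its size factors, other filters and removal of mitochondrial genes reversed 0 of the genes each tested. List medians moved for 17 of 51 lists by total gene reads and 12 without replicate 1. Depth and 3 libraries a group limit genes of few reads and differences under 2-fold. In simulation, edgeR found 79% of the genes changed 2-fold, all of them above a minimum mean level and without a library that stood apart.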
